A study of Mus musculus with 20 samples.

Results

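State 2 is 1 of the 7 segments into which monocle, a program that orders single cells along a branched path by their expression, divided cultured mouse ovarian surface epithelial (OSE) cells. The deposited cell metadata give a state to each of 589 cells, and 147 of them carry State 2. Of these, 143 were control cells and 4 were E2-treated. The control cells came from all 10 control libraries, with 11 to 17 cells in each. OSE cells form the epithelial sheet that covers the ovary. Primary cultures received 100 nM of the estrogen estradiol (E2) for 15 days, and control cultures received the ethanol vehicle at 0.0002%. Cells were captured on 1 Fluidigm C1 chip, and those in a column of the chip were made into a library together. Control cells were in columns 1 to 10 of the chip and E2-treated cells in columns 11 to 20. A difference between conditions therefore cannot be told apart from a difference between these parts of the chip or the suspensions loaded. The number of cultures or animals behind each suspension is not given in the sources used here, and the spread between libraries may be technical. Cells of 10 control libraries (30 to 36 cells each) and 9 E2 libraries (26 to 32 cells each) were analysed, with 3867791 to 5078340 reads per control library and 2693258 to 4037847 per E2 library.

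The OSE is a simple epithelium related to the lining of the body cavity. It expresses both keratins and genes more typical of mesenchyme, and it is wounded and repaired at ovulation. Estradiol acts mainly through the receptor encoded by Esr1, which binds DNA and raises genes such as Greb1 and Pgr. Pseudotime is the distance of a cell along the ordered path from a chosen starting cell, and it is not a time that was measured. States and pseudotime were both built from the expression of these same cells, so differences between states and changes along pseudotime are given as descriptions, without p-values.

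State 2 was almost entirely a control state. It held 43.5% ± 4.91 (SD, n = 10) of the cells of a control library, from 36.7% to 53.3%, and 1.42% ± 2.30 (SD, n = 9) of the cells of an E2 library, from 0% to 6.25%. The groups did not overlap, and the means differed by 42.1 percentage points. The state was chosen as the control branch, so the difference is a description and carries no test. Over all cells, 143 of 329 control cells were in State 2 (43.5%, 95% exact binomial interval 38.0% to 49.0%) and 4 of 260 E2-treated cells (1.54%, interval 0.421% to 3.89%). The intervals treat cells as independent and cover counting error only. Part of the cells of each condition lay in cluster 1, the SC3 cluster of the cell at which the path starts, which held 126 control and 42 E2-treated cells and none of State 2. Of the cells outside cluster 1, State 2 held 71.2% ± 8.72 (SD, n = 10) in control libraries, against 1.65% ± 2.58 (SD, n = 9) with E2.

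**Figure D1:**
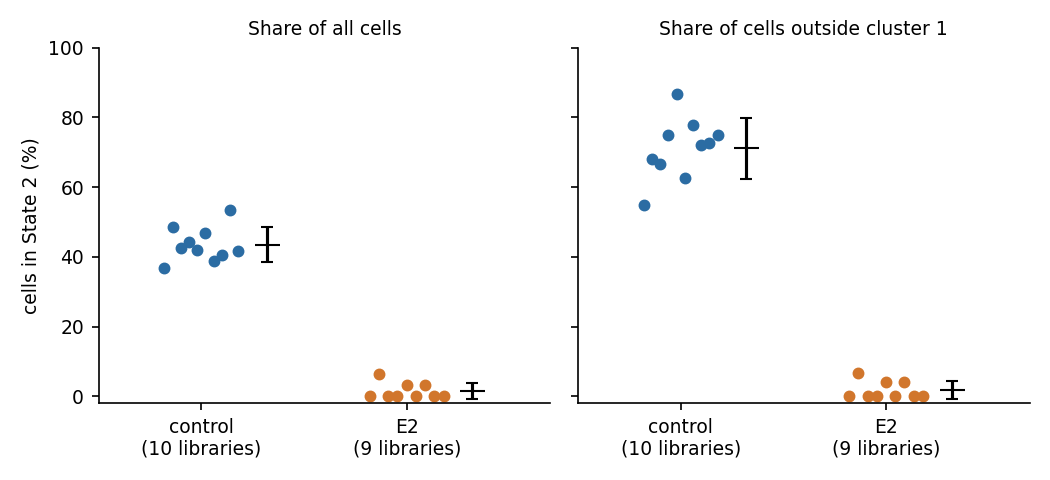
Percent of the cells of each library in State 2, of all cells (left) and of the cells outside cluster 1 (right). Each point is 1 library and bars are mean and SD. Control libraries lie between 36.7% and 53.3% of all cells, and no E2 library is above 6.25%.

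State 2 cells were among the more deeply sequenced. Their median was 149368 reads and 4627 genes with a count in control libraries, with 2.04% of reads on mitochondrial genes. Compared with cluster 1 cells of the same libraries, the median State 2 cell had 39921 more reads (150749 ± 27073 against 110828 ± 16605, SD, n = 10, higher in 10 of 10 libraries). After every cell was thinned to 20000 reads, State 2 cells had 258 more genes with a read (3195 ± 147 against 2937 ± 181, SD, n = 10, higher in 9 of 10 libraries). The mitochondrial share was lower by 0.41 percentage points (2.09% ± 0.294 against 2.50% ± 0.378, SD, n = 10, lower in 10 of 10 libraries). These measures come from the same cells whose expression built the states, so they are descriptions and carry no test. The share of these differences in depth in the gene differences below was not tested, and each comparison between states or along pseudotime was also run on thinned cells.

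The marker genes named for this state were Ptgis, Thy1, Mgp and Krt19, and all were present. Levels are given as scaled counts per cell, that is, the reads of a gene added up within a library and divided by the sum of the size factors of the same cells. A size factor is the authors' estimate of how much each cell must be scaled to be comparable with the others. Levels are not divided by gene length, so they compare cells and not genes. Ptgis (GRCm38 chromosome 2, 167191805 to 167240604, minus strand) encodes prostacyclin synthase. Its level was 83.1 ± 12.7 (SD, n = 10) scaled counts per cell in State 2, and 97.9% of the control cells of the state had a read. Thy1 (chromosome 9, 44043384 to 44048579, plus strand), which encodes a surface glycoprotein used as a marker of fibroblasts and stem cells, was at 20.5 ± 5.48 with a read in 64.3% of cells. Mgp (chromosome 6, 136872435 to 136875823, minus strand), which encodes the calcification inhibitor matrix Gla protein, was at 27.8 ± 13 with a read in 75.5% of cells. Krt19 (chromosome 11, 100140810 to 100148665, minus strand), a keratin of simple epithelia, was at 53.2 ± 11.5 with a read in 94.4% of cells. At 20000 reads per cell the shares with a read were 96.5%, 51.0%, 61.5% and 83.2%, in the same order.

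Levels were ranked without genes whose symbols start with mt- and without genes that lack a symbol. The 10 highest in State 2 were those of Mt1, Lgals1, Gm29216, Fth1, Sparc, Rpsa, Crip1, Rpl41, Ftl1 and Rps19. They include a metallothionein, a galectin, both ferritin chains, the matrix protein osteonectin and 3 ribosomal protein genes. Mt1, which binds zinc and copper, was at 1949 ± 387 (SD, n = 10) scaled counts per cell in State 2 and at 150 ± 234 in cluster 1 cells of the same libraries. Lgals1 was at 1894 ± 394 against 267 ± 165, and Crip1, a small LIM domain protein, at 580 ± 97.8 against 39.0 ± 60.0. Sparc was at 985 ± 165 against 427 ± 104. All 4 were higher in State 2 than in cluster 1 in 10 of 10 libraries. They were also abundant in the E2-treated cells of State 5, where pooled levels were 1150 for Mt1, 4685 for Lgals1, 398 for Crip1 and 657 for Sparc. Lgals1 was thus higher in State 5 than in State 2, and Mt1, Crip1 and Sparc were lower. Between State 2 and cluster 1, Fth1, Ftl1, Rpl41 and Rps19 differed by at most 0.11 on the log2 scale.

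Against cluster 1 of the same control libraries, a gene was called when its log2 fold change was beyond 1 and at least 90% of the libraries shared its sign. Of 9146 genes tested, 937 were called (10.2%), with 569 higher in State 2 (6.22%) and 368 lower (4.02%). The genes that define the split between cluster 1 and the other cells are among them, so the counts describe how far apart the cells were placed. Ptgis was higher in State 2 by 5.05 ± 0.55 (log2, SE), Thy1 by 5.01 ± 0.65 and Krt19 by 4.97 ± 0.52, each in 10 of 10 libraries. Mgp, with a log2 difference of 0.65 ± 0.24 and a higher level in 8 of 10 libraries, was not called. The largest called rises with at least 2 scaled counts per cell were those of Fads3, Serpina3g, Adamts12, Trim47 and Fbln1. Fads3, a fatty acid desaturase family gene, was at 4.75 ± 3.83 in State 2 and 0.03 ± 0.06 in cluster 1. The largest falls were those of Lgals3, Cyp1b1, Col1a2, Gpc3 and Mmp2. Col1a2, a chain of type I collagen, was at 1.3 ± 0.88 in State 2 and 242 ± 54.9 in cluster 1, and Mmp2, a secreted gelatinase, at 0.16 ± 0.07 and 31.6 ± 12.3.

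Gene lists read against those backgrounds showed where the state stood apart from cluster 1. Of 15 mesenchymal and matrix genes tested, 6 were higher in State 2 and 3 lower. Fn1 (fibronectin) was higher by 3.72 ± 0.26 (log2, SE) and Col6a2 by 3.54 ± 0.77, while Col1a2 was lower by 7.69 ± 0.25 and Mmp2 by 7.52 ± 0.32. Of 21 interferon-induced and antigen presentation genes, 6 were higher and 0 lower, and they included Gbp2 and the immunoproteasome subunits Psmb8 and Psmb10. Of 13 metal and heme handling genes, 3 were higher and 0 lower: Mt1, the metallothionein Mt2 (by 5.19 ± 0.59) and the iron reductase gene Cybrd1 (by 5.58 ± 0.87). Of 26 hypoxia and glycolysis genes, 6 were higher and 1 lower, with Ndrg1 up by 2.50 ± 0.25 and Hk2, a hexokinase, down by 1.58 ± 0.27. Of 31 lysosomal genes, 6 were higher and 0 lower. Among them Ctsh, a cathepsin, was higher by 4.92 ± 0.54 and Psap, the precursor of the saposins that help to break down sphingolipids, by 1.44 ± 0.16. The complement list moved both ways: Clu, Cfi and Cd55 were higher, and the protease genes C1s1, C1ra and C1s2 were lower. Of 93 nuclear respiratory chain and ATP synthase genes 7 were higher, close to the background, and of 83 ribosomal protein genes 0 were called in either direction.

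**Figure D2:**
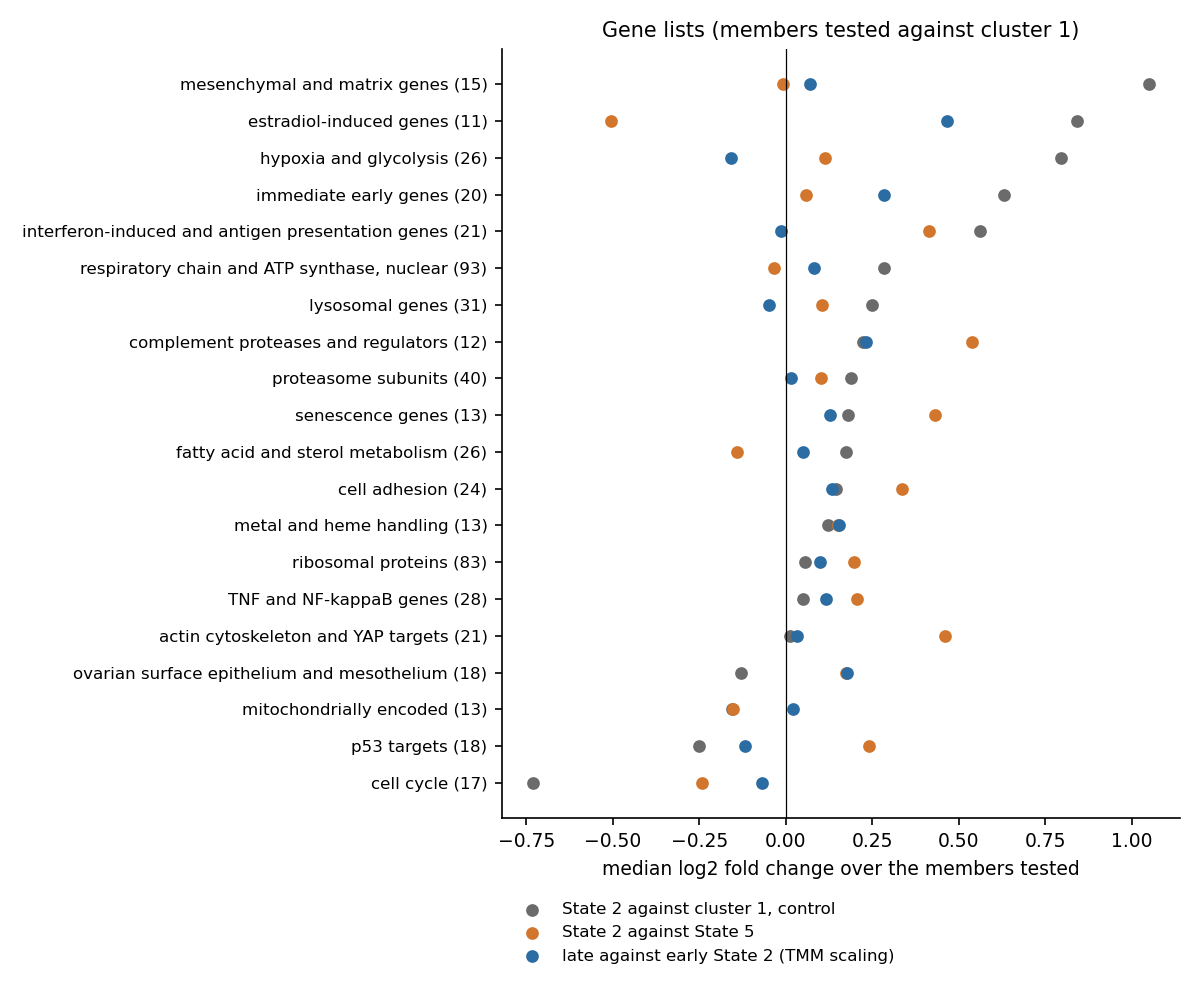
Median log2 fold change over the tested members of each gene list with at least 10 members tested against cluster 1 (number in brackets) for State 2 against cluster 1 of control libraries, State 2 against State 5, and late against early State 2 cells with TMM scaling. Among these lists, the mesenchymal and matrix list has the highest median against cluster 1 and the cell cycle list the lowest, while medians of late against early State 2 cells lie between -0.16 and 0.47.

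Markers of other cell types were checked in the same cells. Of the listed genes, 4 of 9 leukocyte, 5 of 9 endothelial, 2 of 7 granulosa cell, 3 of 6 theca and steroidogenic, and 4 of 7 muscle and pericyte genes were in the table. The summed level of the leukocyte genes was 4.39 to 20.2 scaled counts per cell over State 2 libraries, 1.88 to 13.4 in cluster 1 and 3.02 to 17.5 in State 5, and Ptprc, which defines leukocytes, had a read in 10 of 143 State 2 cells. The endothelial sum was 61.6 to 99.5 in State 2, 42.6 to 95 in cluster 1 and 54.9 to 92.1 in State 5. Nearly all of it was Pecam1, an adhesion gene with a read in 143 of 143 cells at 71.4 scaled counts per cell. Vwf and Tie1 were at 0.36 and 0.32, Cdh5 was not among the genes in the table, and Kdr, a receptor of vascular endothelial growth factor, was at 4.69 in State 2 against 0.08 in cluster 1. Star, of steroidogenic cells, was at 5.09 and 27.3, and Inha, of granulosa cells, at 2.18 and 9.67, both lower in State 2. The muscle and pericyte sum was 0.76 to 5.94 in State 2 and 0.056 to 3.21 in cluster 1, with Des in 6 cells. The part of such cells in the differences between states was not tested.

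State 5 held 151 cells, all E2-treated, at the tip of the path taken by treated cells, and it was compared with State 2 over 9 and 10 libraries. A gene was called when the log2 fold change was beyond 1 and the libraries did not overlap. Of 9518 genes tested, 36 were called (0.378%), of which 16 were higher in State 2 (0.168%) and 20 lower (0.21%). State and treatment coincide in this comparison and cannot be told apart.

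The strongest of the higher genes was Thy1. Its level per library ranged from 13.4 to 29.8 scaled counts per cell in State 2 (median 20.1) and from 0.07 to 4.21 in State 5 (median 1.07), a log2 difference of 4.05 ± 0.46 (SE). Reads of Thy1 were found in 64.3% of State 2 cells and 14.6% of State 5 cells, or 51.0% and 8.61% at equal depth. Mgp ranged from 13.5 to 51.3 in State 2 and from 2.26 to 12.8 in State 5, so the lowest State 2 library was only just above the highest of State 5, and Ptgis from 63.2 to 102 against 16.3 to 52.5. Their log2 differences were 2.10 ± 0.33 and 1.09 ± 0.19. Krt19 went the other way without being called, at 53.2 ± 11.5 (SD, n = 10) against 75.5 ± 11.9 (SD, n = 9).

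Psap (chromosome 10, 60277627 to 60302597, plus strand) was also called higher in State 2. It ranged from 283 to 792 scaled counts per cell in State 2 and from 30.3 to 189 in State 5, a log2 difference of 1.81 ± 0.23 (SE). Trf, the iron carrier transferrin, was at 393 ± 68.7 (SD, n = 10) against 142 ± 33.2 (SD, n = 9), and Timp2, an inhibitor of metalloproteinases, at 156 ± 32.2 against 62.5 ± 13.3. C3, the central complement component, was at 300 ± 75.3 against 136 ± 32.7. Gngt2, Synpo, Sema3f, Tnfaip2, Tspan4, Efemp2, Ndrg1, Igfbp6 and Il11ra1 completed the called rises, with log2 differences from 1.04 to 2.55.

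Among the 20 genes lower in State 2, Greb1 (chromosome 12, 16670615 to 16800886, minus strand), an estrogen-induced gene, was nearly absent. It had 1 read in the 143 State 2 cells, in 1 library, and 551 reads in 31 of 151 State 5 cells. Igfbp5 (chromosome 1, 72857932 to 72874884, minus strand), a binding protein of insulin-like growth factors, ranged from 10.5 to 36.7 scaled counts per cell in State 2 and from 77.8 to 249 in State 5, a log2 difference of -2.91 ± 0.25 (SE). Ctsh was at 15.4 ± 4.32 (SD, n = 10) against 66.5 ± 11.7 (SD, n = 9), and Lpl, lipoprotein lipase, at 36.4 ± 8.0 against 144 ± 41.9. Tmem255a, Pkp4, Tagap, Cd320, Rgs3 and Fgf9 were also lower, by 4.23 to 2.05 on the log2 scale, as were Creg1, Cd55 and the cholesterol acyltransferase gene Soat1. The Esr1 level did not separate the states, at 3.85 ± 4.01 in State 2 and 3.00 ± 2.48 in State 5, with a read in 25.2% of the cells of each. Cdkn1a, a cell cycle inhibitor, was at 16.2 ± 15.1 and 14.3 ± 8.02, and the proliferation gene Mki67 had a read in 14% and 7.95% of cells, or 4.90% and 2.65% at equal depth. No value is given for Pgr, which was not among the genes in the table.

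**Figure D3:**
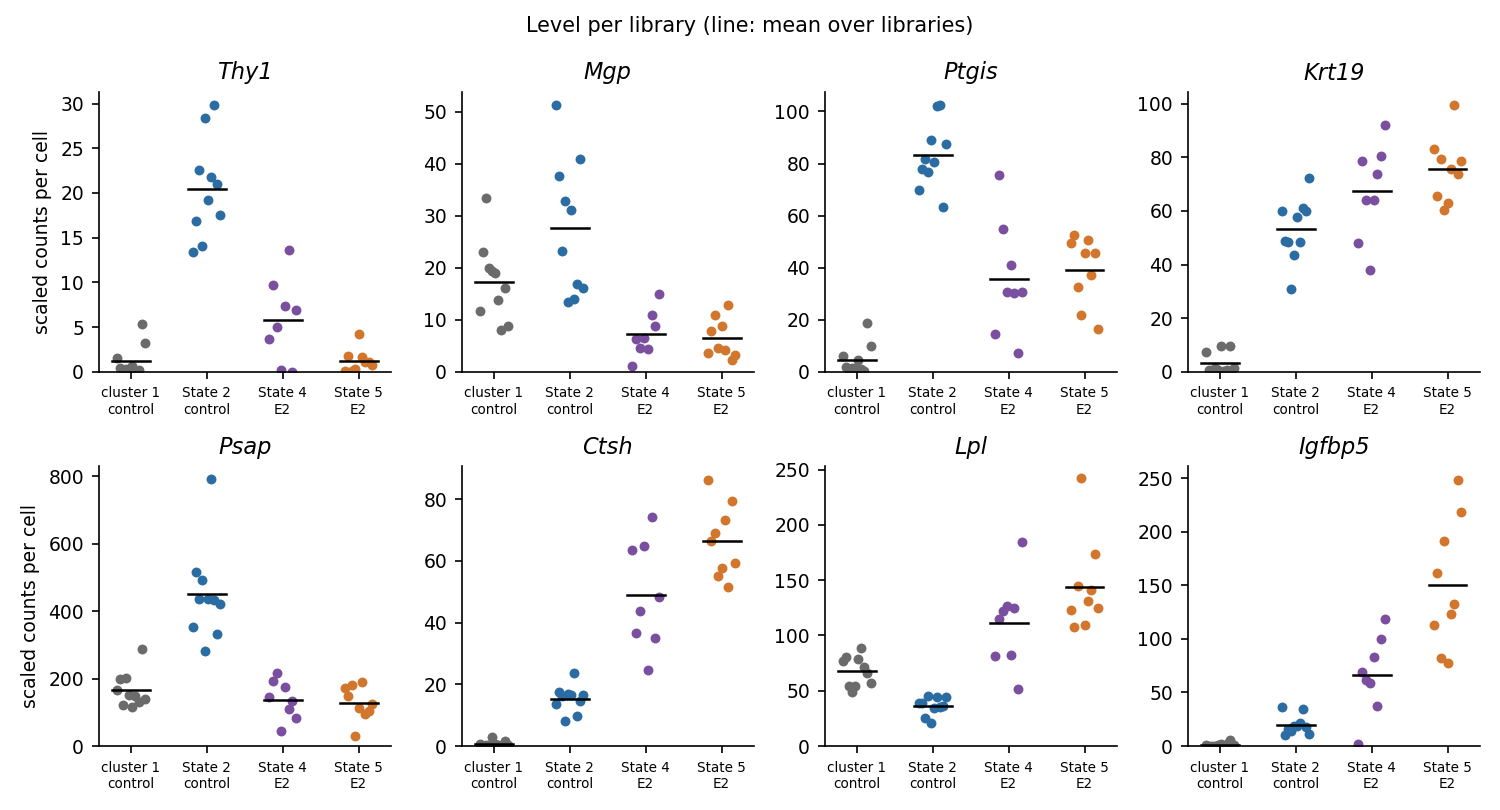
Scaled counts per cell of 8 genes in cluster 1 and State 2 of control libraries (10 each) and in State 4 and State 5 of E2 libraries (8 and 9). Each point is 1 library and the line is the mean. State 2 lies above State 5 for Thy1, Mgp, Ptgis and Psap without overlap, and below it for Ctsh, Lpl and Igfbp5. For Krt19 the groups overlap.

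State 4, at the start of the treated path, held 43 E2-treated and 21 control cells. In the 8 E2 libraries that had 3 or more of these cells, 23 of 8825 genes were called (0.261%), 21 of them higher in State 2 (0.238%) and 2 lower (0.0227%). Sums of State 4 held 3 to 9 cells and those of State 2 held 11 to 17, and low genes with few or no reads in the summed State 4 libraries (Adamts12, Cp, Tbc1d13, Slc22a21, Zfp386) lead the list by size. Among genes with more reads, Psap was higher in State 2 by 1.71 (log2), Casp1, the protease that activates interleukin 1 beta, by 1.64, the complement protease gene C1s1 by 1.25, Igfbp6 by 1.2 and Bgn, the matrix proteoglycan biglycan, by 1.07. The 2 lower genes were Ctsh, at 15.4 ± 4.32 (SD, n = 10) against 48.9 in State 4, and Lpl, at 36.4 ± 8.0 against 111. Mgp, Thy1 and Ptgis, with log2 differences of 1.95, 1.81 and 1.22, were not called against State 4, whose libraries overlapped with State 2 (Thy1 0 to 13.6 scaled counts per cell in State 4). The comparisons with State 4 and State 5 share the State 2 libraries.

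The cells of State 4 were also placed between State 2 and State 5. For each of the 36 genes called against State 5, the level pooled over a group of cells was placed nearer to State 2 or nearer to State 5 on the log2(level + 1) scale. The 21 control cells of State 4 were nearer to State 2 for 20 of the 20 lower genes and 8 of the 16 higher genes. The 43 E2-treated cells of State 4 were nearer to State 2 for 3 of 20 and 2 of 16. The 36 genes were called between control cells of State 2 and E2-treated cells of State 5, so nearness to State 2 cannot be told apart from absence of E2. Ctsh was at 6.28 scaled counts per cell in the control cells of State 4, Lpl at 31.4 and Psap at 308, and Greb1 had no read. These pooled values rest on 2 cells from each of 8 libraries and 5 from another, and were not tested.

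The 4 E2-treated cells of State 2 came from 3 libraries, 2 of them from column 12 and 1 each from columns 16 and 18. All 4 carried the SC3 label of the E2-treated cells at 3 clusters, whereas the 143 control cells all carried the other label. Lpl had 60 to 217 reads in each of the 4, or 176 to 403 scaled counts per cell. Single control cells of State 2 had quartiles of 14.7 and 53.7 and reached 209, so the lowest of the 4 lay within their range and the other 3 above it. Igfbp5 was at 158 and 186 in the cells of column 12 and at 37.9 and 24.2 in the others. Thy1 had reads in 2 of the 4 cells, 20 in one and 1 in the other, and Greb1 had none in any. Pooled over the 4 cells, 15 of the 36 genes were nearer to State 2.

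Inside State 2, pseudotime of the control cells ran from 36.4 to 50.3 with a median of 46.4, and cells gathered above 49.2, the start of the last of 3 equal parts. Library medians ranged from 43.7 to 49.2. The cells were split at the median into 72 early and 71 late cells. Libraries 1 and 4 had only 2 late cells each, so late and early cells were compared within the other 8 libraries. Reads per cell, genes at equal depth and the mitochondrial share differed between early and late cells by less than the SD of the difference over libraries. The late median cell had 1628 more reads (SD of the difference 27267, higher in 5 of 8 libraries) and 36.6 more genes (SD 156, higher in 4 of 8). Its mitochondrial share was lower by 0.20 percentage points (SD 0.46, lower in 6 of 8).

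What moved most clearly along pseudotime was the scaling of the cells. The number of reads per unit of size factor rose with pseudotime, with a Spearman's rho of 0.65 over 143 cells and a positive rho within each of the 10 libraries (0.36 to 0.82). Its mean was 119024 in the first of 3 equal parts, 134277 in the middle and 173427 in the last. In late cells it averaged 148494 ± 18379 (SD over libraries of the median cell, n = 8) against 119546 ± 9929 in early cells, higher in 8 of 8 libraries. Reads per cell had a rho of only 0.08 with pseudotime and the size factor itself one of -0.33. A count divided by its size factor is therefore raised in late cells for the typical gene. The median of all genes was 0.47 higher (log2) in late than in early cells with the size factors, and 0.13 higher with TMM scaling of the same sums. Changes are given below on both scales.

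**Figure D4:**
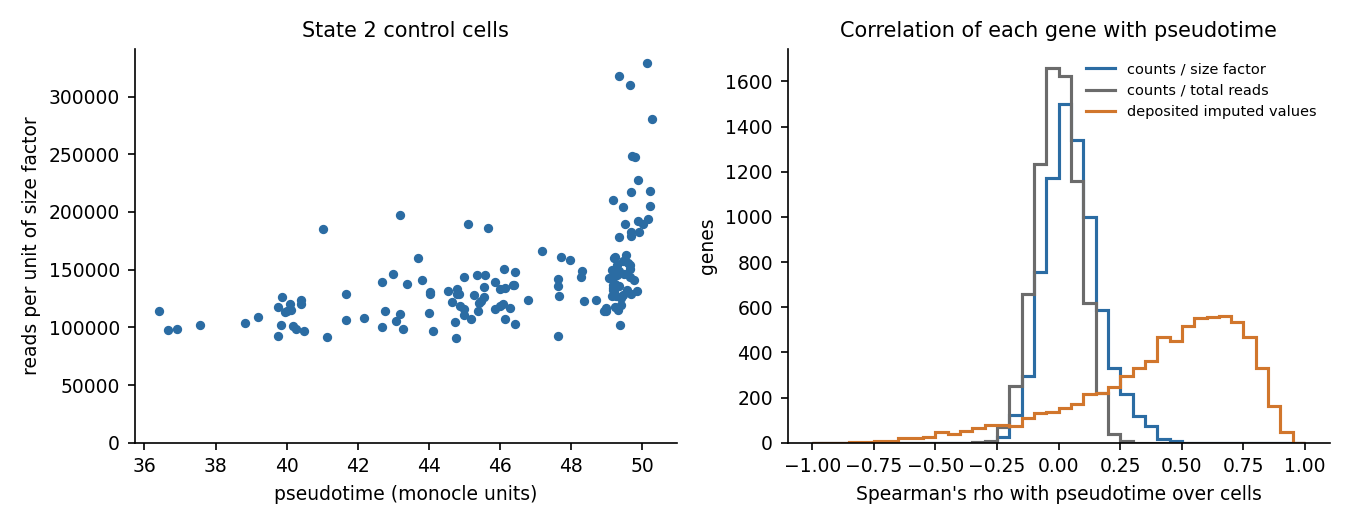
Left, reads per unit of size factor against pseudotime for the 143 control cells of State 2. Right, the number of genes by Spearman's rho with pseudotime over the same cells, for counts divided by the size factor, counts divided by total reads, and the deposited imputed values. The values on the left rise with pseudotime (rho 0.65), and the imputed values on the right are centred on a rho of 0.49 while both count scales are centred near 0.

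Single genes followed pseudotime weakly in the counts and strongly in the imputed values. Over 7563 genes, the median rho with pseudotime was -0.003 for counts divided by total reads and 0.05 for counts divided by size factors, and 0 and 1 genes, respectively, passed 0.5 in size. In the deposited imputed values, which share reads between similar cells, the median rho was 0.49, 88.0% of genes were positive and 3836 passed 0.5 in size. The 143 cells share libraries and the pseudotime was itself drawn from their expression, so these are descriptions. Ptgis had a rho of 0.92 with pseudotime in the imputed values, 0.20 in counts divided by size factors and 0.005 in counts divided by total reads. The corresponding values for Krt19 were 0.83, 0.27 and 0.13, for C3 0.76, 0.41 and 0.23, and for Thy1 0.36, 0.01 and -0.06.

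With size factors, 107 of 7563 genes were called between late and early cells (1.41%), with the log2 fold change beyond 1 and the same sign in 8 of 8 libraries. Of these, 102 were higher late (1.35%) and 5 lower (0.0661%). With TMM scaling 40 of 7673 were called (0.521%), 26 higher and 14 lower, and 31 genes were called on both scales, 29.0% of the first list and 77.5% of the second. Of the 107, 49 stayed below 10 scaled counts per cell in early and in late cells.

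None of the 4 markers was called between late and early cells. Ptgis was at 76.2 ± 19.5 (SD, n = 8) scaled counts per cell early and 94.6 ± 18.8 late, a log2 difference of 0.33 ± 0.20 (SE) with size factors and -0.01 with TMM. Thy1 was at 17.6 ± 10.2 and 22.7 ± 10.3, and Mgp at 19.1 ± 13.6 and 30.3 ± 17.7, each higher late in 5 of 8 libraries. The Thy1 direction depended on the split, with a log2 difference of 0.57 between late and early cells and of -1.02 between the last and the first of 3 equal parts, where Mgp was at 1.12 and Ptgis at 0.67. These fits used the libraries with at least 3 cells in both parts. Pooled over all 10 libraries, Thy1 was at 20.2 in the first part and 23.2 in the last. Krt19 was higher late in 8 of 8 libraries, at 39.5 ± 12.4 and 72.4 ± 30.1, a log2 difference of 0.85 ± 0.24 with size factors and 0.52 with TMM, and of 1.13 between the last and first parts.

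The called rises with the most reads, those above 40 scaled counts per cell in late cells, were C3, Hspb1, Maged1, Tgm2, Ndufs7 and Gja1, a group chosen after its values were seen. C3 (chromosome 17, 57203970 to 57228136, minus strand) was at 324, 173, 196, 320, 12.5, 120, 146 and 208 in early cells of libraries 2, 3, 5, 6, 7, 8, 9 and 10 and at 475, 328, 319, 461, 312, 555, 366 and 350 in their late cells. Early and late values overlapped, and the early value of library 7, from 3 cells, was far below the rest. The log2 difference was 1.33 ± 0.35 (SE) with size factors and 0.99 with TMM, and 0.99 with size factors without library 7. Hspb1, a small heat shock protein, rose from 61.5 ± 14.3 (SD, n = 8) to 126 ± 33.5, by 1.03 ± 0.19 on the log2 scale and 0.70 with TMM. Maged1 rose from 39.4 ± 16 to 89.7 ± 18.3, and Tgm2, a transglutaminase that crosslinks matrix proteins, from 34.3 ± 10.3 to 75 ± 22.2. Ndufs7, a subunit of respiratory complex I, rose from 24.5 ± 8.02 to 54.9 ± 13.5, and Gja1, the gap junction protein connexin 43, from 20.8 ± 8.45 to 45.1 ± 15.0. With TMM these 4 were higher late by 0.80 to 0.93, so all 6 kept their direction and none passed the fold of 1.

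The largest rises were in genes with few reads. By size they were Rfc2, Fosb, Pip4k2a, Pik3c3, Zfyve16, Pkia, Csf1r, Mindy3, Golga2, Bckdha, Ppp2r2a and Rgs19, with log2 differences from 4.76 to 2.76 and SEs of 0.78 to 1.33. Fosb, an immediate early transcription factor, was at 1.85 ± 2.46 (SD, n = 8) scaled counts per cell early and 14.3 ± 11.4 late. Over 3 equal parts of pseudotime and all 10 libraries, its pooled level was 5.31, 8.63 and 10.5. The first part contains cells of libraries 1 and 4, which the late against early comparison leaves out. Csf1r, a receptor of macrophages, went from 0.75 ± 1.06 to 3.73 ± 2.48, and Rfc2, of the clamp loader of DNA replication, from 0.49 ± 1.07 to 4.80 ± 3.42. Over single cells, the highest rho of the 12 with pseudotime was 0.16 with size factors.

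Only 5 genes fell with size factors, and all 5 were also called with TMM. Cpeb1, which binds messenger RNA, fell from 6.21 ± 4.06 (SD, n = 8) scaled counts per cell to 1.22 ± 2.03, by 3.69 ± 1.2 (SE) on the log2 scale. Katnbl1 went from 8.09 ± 3.53 to 2.25 ± 2.06 and Mtpap, the mitochondrial poly(A) polymerase, from 4.41 ± 3.45 to 1.31 ± 1.35. Ets2, a transcription factor, went from 10.5 ± 3.81 to 3.76 ± 2.95, with 2 late libraries at 0. Clpp, the mitochondrial matrix protease, was at 15.4 ± 9.20 and 8.35 ± 5.23, and its pooled level over the 3 parts was 15.1, 11.3 and 8.44. The log2 difference of Clpp was -1.0005 with size factors, barely past the threshold, and -0.48 in thinned cells.

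**Figure D5:**
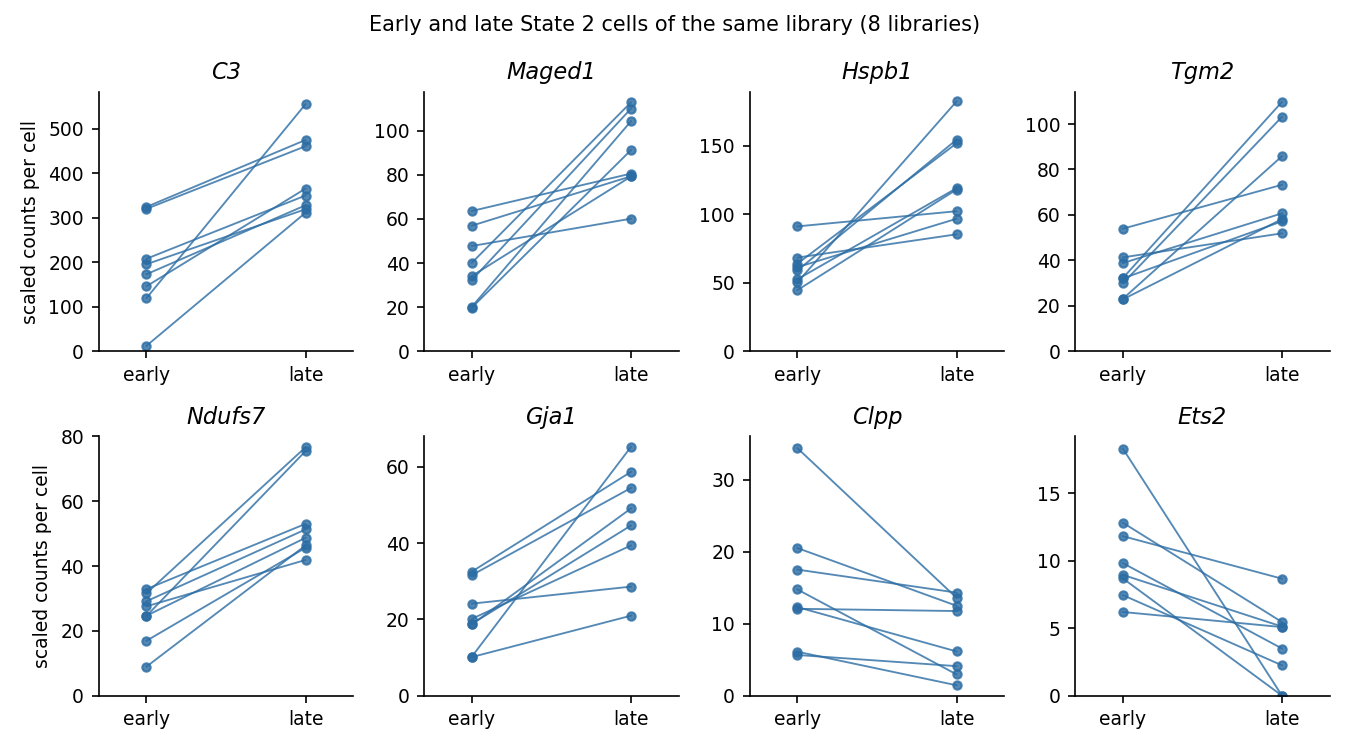
Scaled counts per cell (counts divided by size factors) in early and late State 2 cells of the same library, joined by a line, for 8 libraries. The 6 genes that rose and the 2 that fell moved the same way in 8 of 8 libraries, and early and late values of C3 overlap. With TMM scaling the 6 rises keep their direction at 0.70 to 0.99 on the log2 scale.

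Late and early cells were also compared by gene list. Against an all-gene median of 0.47 with size factors, list medians were 0.18 for hypoxia and glycolysis, 0.22 for p53 targets, 0.28 for lysosomal genes, 0.43 for ribosomal proteins, 0.46 for TNF and NF-kappaB genes, 0.56 for complement, 0.63 for immediate early genes and 0.80 for 7 estradiol-induced genes. With TMM, against 0.13, they were -0.16, -0.12, -0.05, 0.10, 0.12, 0.23, 0.28 and 0.47, in the same order. Lists with 1 or 2 members tested lay farther out, with 2 leukocyte genes at 2.05 (1.72 with TMM) and 1 theca and steroidogenic gene at -0.51 (-0.89 with TMM). With size factors, where 1.41% of all genes were called, called members included C3 of 11 complement genes, Fosb of 18 immediate early genes, Psmd1 of 40 proteasome subunits, Csf1r of 2 leukocyte genes, and Ndufs7, Cox6b2 and Ndufaf8 of 91 respiratory chain genes, all higher late. Of the 13 mitochondrially encoded genes, 83 ribosomal proteins, 15 p53 targets and 13 senescence genes tested, 0 were called.

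The genes that distinguish State 2 from State 5 were also looked up in cells that were in none of States 2, 4 and 5. There, E2 was compared with control over sums per library and cluster, with cluster as a covariate. A library could give a sum in cluster 1 and another outside it, and the fit had no library term. Its p-values treat such sums as independent. Of 6930 genes, 8 passed an adjusted p below 0.05 and a log2 fold change beyond 0.5 (0.115%, edgeR quasi-likelihood test, Benjamini-Hochberg adjustment), all higher with E2. Outside cluster 1, that comparison sets 15 cells of 5 E2 libraries, all of State 6, against 37 control cells of 8 libraries. State 6 held E2-treated cells only, at pseudotime 53.2 to 54.4, inside the State 5 range of 52.3 to 61.5. State and treatment therefore coincide in that part as well and cannot be told apart. Of the 36 genes called against State 5, 33 were tested and Lpl alone was called, higher with E2 by 1.49 ± 0.26 (log2, SE; edgeR adjusted p = 0.00574). Lpl was 1 of 8 genes with this call, and with State 1 cells only, a choice made after seeing the data, edgeR called 0 genes (512 at an unadjusted p below 0.05). With cluster 1 cells only, edgeR called 5 of 8287 genes, 1 higher with E2 and 4 lower.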

How the data were processed

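Single mouse OSE cells were sequenced on 1 chip and grouped by the treatment in the sample titles. For each cell, the authors deposited estimated counts of every gene, from kallisto 0.44.0 on GRCm38 (submitters' processing notes) and tximport, after their filters on cells and genes. Of the values above 0, 66.9% were whole. The authors also deposited log2 values, scaled by scran and imputed with MAGIC, and cell metadata. The deposited metadata hold the size factor as a ratio, the percent of mitochondrial reads, the pseudotime score, the state and the SC3 cluster labels. The base of the logarithm was taken as 2 from the values. Symbols of 14135 of 14299 genes and positions came from GENCODE M21 (GRCm38).

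Counts were summed per library and cell group with at least 3 cells, rounded to whole numbers, filtered with filterByExpr and fitted with edgeR 4.0.16 (R 4.3.3), with the summed size factors as the offset. The library was a term where both groups came from the same libraries. A standard error is the size of the log2 fold change over the root of its F statistic. State comparisons were called by fold and libraries as stated in the text, and only E2 against control outside States 2, 4 and 5 used the quasi-likelihood test with p-values. Cell quality was compared within libraries, as medians over cells, with Python 3.11.15 and SciPy 1.17.1. The fits were tested on simulated data. A count of 0 allows a level of up to 3 counts over the summed size factors. Alternatives were TMM scaling, DESeq2 1.42.0, no filter, cells thinned to 20000 reads, no library term, the first against the last of 3 equal parts of pseudotime, imputed values and leaving out each library. Named genes were the 4 markers, up to 12 called genes in each direction between late and early cells, 10 against State 5 and 5 against cluster 1 (at least 2 scaled counts per cell), the 10 highest levels, up to 4 members of each list and 7 genes chosen by name. The remaining genes called against State 4 and State 5, and the 6 called late genes above 40 scaled counts, were named after their values were seen. The cells, lists and tests were chosen with earlier results of these data known. No 2 cells had identical counts. No sample of column 13 was analysed here. Some results for single genes are not reported here.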

Additional observations from a re-analysis of the deposited data

Results flagged for a closer look

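Of 92 groups of libraries examined for a sample far from the rest, 5 had one, where chance gives about 1 in 20. The median State 2 cell of control library 5 had 211267 reads, against 117870 to 167216 in the other 9 libraries. Psap in State 2 was at 792 scaled counts per cell in library 7, against 283 to 517 in the others, all above the highest State 5 library. Creg1 was at 147 in library 10, against 68.9 to 108 elsewhere. Zfp386 was at 11.5 in library 6, against 1.01 to 5.24. Greb1 was at 0.052 in library 4, where its single read lay, and at 0 in the other 9.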

How the results depend on the processing

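The late against early count was 107 of 7563 genes as reported (1.41%), 44 of 2636 in thinned cells (1.67%) and 0 in the imputed values. Between the first and last of 3 equal parts it was 420 of 6783 genes (6.19%). When 1 library was left out it was 141 to 196. With 3 equal parts or 1 library left out, fewer libraries had both sums, so a call needed fewer to agree. The count was 40 with TMM (26 higher, 14 lower) and 41 with DESeq2 (25 higher, 16 lower). The share of higher among the calls therefore changed with the scaling, and higher genes outnumbered lower ones with TMM and DESeq2 too. In the imputed values Cpeb1 (0.045), Katnbl1 (0.026) and Ets2 (0.039) reversed to slightly positive differences. The difference in genes between late and early cells reversed to -7.25 at full depth. Against State 4, 23 of 8825 genes (0.261%) became 11 with DESeq2 and 9 of 4107 in thinned cells (0.219%). Without 1 library the count was 22 to 54 (54 without E2 library 14). Against sums of at least 2 control State 4 cells, 203 of 7293 genes were called (2.78%), all higher in State 2. That fit was chosen after seeing the data, and its State 4 sums held 2 cells in 8 libraries and 5 in 1. The median of all genes was shifted by 1.23 in it, so the count is not comparable with the others. Against cluster 1, 937 became 448 of 4512 genes in thinned cells. Calls against State 5 numbered 35 to 48 without 1 library, and 26 to 38 under the other alternatives. The 26 were of 4882 genes in thinned cells (0.533%), against 36 of 9518 as reported (0.378%). E2 against control outside the 3 states gave 8 genes, all higher with E2, and 2 with TMM, both higher. It gave 27 with no filter (25 higher, 2 lower) and 70 with DESeq2 (47 higher, 23 lower). It gave 5 in cluster 1 only (1 higher, 4 lower), 0 in State 1 only and 2 to 24 without 1 library. The share difference stayed between 41 and 42.8 points without 1 library, and was 69.5 of cells outside cluster 1. Control State 4 cells in sums of at least 3 could not be compared, since 1 library has as many. Control and E2 could not be compared in pairs because their libraries share no replicate numbers.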
